A study of Mus musculus with 6 samples.

Results

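The autosomal collagen genes that are not typical of cartilage were examined in the whole brain of the mouse embryo at E15.5 (E, embryonic day). Members were all RefSeq transcript IDs whose mouse symbol has the form of a collagen chain name (Col, a type number, a, a chain number), leaving out Col2a1, Col9a1, Col9a2, Col9a3, Col11a1, Col17a1 and the X-linked Col4a5 and Col4a6. This gave 37 IDs of 33 genes out of 23485 IDs in the count tables, while 9 further collagen IDs of 8 genes were left out. The rule keeps Col10a1, Col11a2 and Col27a1, which are themselves known from cartilage. The members fell into 8 fibrillar IDs, 4 basement membrane IDs, 6 FACIT IDs and 19 other IDs (FACIT, fibril-associated collagens with interrupted triple helices). Expression was measured by RNA-seq in 3 female and 3 male samples of C57BL/6 wild-type embryos, sexed by their gonads, and the comparison between the groups asks which transcripts differ between the sexes. All 6 samples share genotype, stage and tissue and carry no treatment. A sample is a pool of RNA of several embryos, so that variation among single embryos is not visible and p-values measure the spread between pools.

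Collagens are extracellular proteins made of 3 chains wound into a triple helix, and the chains of 1 molecule can come from 1 gene or from several. Fibrillar collagens form the banded fibres of connective tissue, FACITs sit on the surface of those fibres, and type IV collagen forms the sheet-like network of basement membranes. In the embryonic brain, collagens are known chiefly from the meninges, the blood vessels and the basement membrane under the pial surface rather than from neurons.

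The regions just upstream of 5 collagen genes are shown as the DNA context of the transcripts described here. Col1a2, Col3a1 and Col5a1 are shown as abundant fibrillar chains, Col4a2 as the most abundant of the basement membrane IDs analysed here, and Col6a4 as the member with the lowest p in the comparison of the sexes. Each window runs from 250 bases before to 50 bases after the gene start in RefSeq (GRCm38.p6), written 5′ to 3′ on the strand of the gene. Capitals mark the CCAAT box, the core of the TATA box (TATAA) and the core of the GC box (GGGCGG), on either strand. A match on the opposite strand is printed as its reverse complement. In the Col3a1 window a match of the TATA core and its reverse complement overlap, which prints as 1 run of capitals.
Col1a2 promoter, chr6:4505368-4505667, plus strand: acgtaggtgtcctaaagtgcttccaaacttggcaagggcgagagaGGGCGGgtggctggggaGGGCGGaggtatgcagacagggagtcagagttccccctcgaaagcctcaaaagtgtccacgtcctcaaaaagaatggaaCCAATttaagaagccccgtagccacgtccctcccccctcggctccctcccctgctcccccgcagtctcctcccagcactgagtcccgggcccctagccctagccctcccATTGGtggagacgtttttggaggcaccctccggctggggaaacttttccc
Col3a1 promoter, chr1:45311288-45311587, plus strand: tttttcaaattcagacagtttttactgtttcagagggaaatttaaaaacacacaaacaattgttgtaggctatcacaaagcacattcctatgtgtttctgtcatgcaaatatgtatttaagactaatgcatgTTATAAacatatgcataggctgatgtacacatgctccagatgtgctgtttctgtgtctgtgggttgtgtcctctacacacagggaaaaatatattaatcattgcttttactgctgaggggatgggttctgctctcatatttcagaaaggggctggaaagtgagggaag
Col5a1 promoter, chr2:27886175-27886474, plus strand: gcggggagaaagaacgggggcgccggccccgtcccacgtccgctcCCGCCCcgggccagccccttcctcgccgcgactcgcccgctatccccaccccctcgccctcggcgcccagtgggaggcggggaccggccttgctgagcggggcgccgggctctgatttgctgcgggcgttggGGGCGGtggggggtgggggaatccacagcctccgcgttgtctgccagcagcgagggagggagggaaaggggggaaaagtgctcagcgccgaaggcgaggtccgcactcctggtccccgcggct
Col4a2 promoter, chr8:11312555-11312854, plus strand: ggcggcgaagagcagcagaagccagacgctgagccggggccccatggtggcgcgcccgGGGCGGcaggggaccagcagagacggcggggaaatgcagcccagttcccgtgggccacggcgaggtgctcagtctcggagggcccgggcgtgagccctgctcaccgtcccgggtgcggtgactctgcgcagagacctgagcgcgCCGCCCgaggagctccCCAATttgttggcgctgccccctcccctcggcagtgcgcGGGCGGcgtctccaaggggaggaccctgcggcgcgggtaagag
Col6a4 promoter, chr9:106096642-106096941, minus strand: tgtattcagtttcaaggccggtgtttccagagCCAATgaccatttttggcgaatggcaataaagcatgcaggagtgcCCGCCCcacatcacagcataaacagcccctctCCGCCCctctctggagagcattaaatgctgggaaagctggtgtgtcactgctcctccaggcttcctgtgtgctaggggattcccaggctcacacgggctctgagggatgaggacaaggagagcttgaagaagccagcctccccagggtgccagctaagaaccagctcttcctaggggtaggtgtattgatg

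RefSeq windows were found for 27 of the 33 genes, 29 windows in all, and not for Col1a1, Col5a2, Col12a1, Col14a1, Col22a1 and Col4a3. GGGCGG, the core of the GC box, stood in 18 of the 29 windows (62.1%), against 35.7% of all 32851 windows of the same length. CCAAT stood in 8 windows (27.6%, against 37.4% of all windows), and TATAA in 4 (13.8%, against 24.9%), namely Col3a1, Col10a1, Col11a2 and Col13a1. The median GC content was 60.0% in the collagen windows and 52.7% in all windows. The Col4a2 window overlaps that of Col4a1 by 78 bases, since these genes start next to each other on opposite strands. On NCBIM37, the mm9 build used for the counts, the annotated genes overlap by 22 bases on chromosome 8. Col4a3 and Col4a4 likewise start on opposite strands of chromosome 1, 71 bases apart. These matches describe letters in the windows only.

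Totals ranged from 4908565 to 10294443 counts per sample, and 3 counts corresponded to 0.291 to 0.611 CPM (counts scaled to a common library size), a limit that covers counting error only. Levels below are in CPM of totals scaled by edgeR's TMM factors. Of the 37 IDs, 32 had 10 or more counts in at least 1 sample and were tested. The other 5 had at most 8 counts in any sample. These were the Col4a1 ID NR_133670, the Col11a2 ID NM_009926, Col13a1, Col25a1 and the Col6a6 ID NM_172927. The only Col4a1 ID analysed here, NR_133670, is a non-coding variant with 0 to 5 counts, so no level of the Col4a1 mRNA is given. Col5a3, Col24a1 and Col26a1 were not analysed here.

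The level of an ID was related to the number of transcript models that RefSeq lists for its gene. All 24 member IDs of genes with 1 curated model were tested, and their mean counts had a median of 1109. Of the 13 member IDs of genes with 2 or more models, 8 were tested, with a median over all 13 of 20.3 counts. Of these 13, Col14a1 with a mean of 3147 counts and the Col6a2 ID NM_146007 with 1221 lay above the median of the first group. Over all IDs the medians were 36.2 counts with 1 model and 3.00 with 2 or more. The handling of reads that several transcripts share is not given in the sources used here, and its part in these low counts was not tested. Levels of Col4a1, Col6a2, Col6a3, Col6a6, Col11a2, Col13a1, Col14a1, Col18a1 and Col25a1 are therefore uncertain as levels of the genes.

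The 37 member IDs, without the 9 collagen IDs left out, took 2.54% to 3.54% of all counts in a sample. Within them, Col1a1, Col1a2 and Col3a1, the chains of type I and type III collagen, took 68.5% to 74.9%. Col3a1 had the 5th highest mean CPM of all IDs in the tables, Col1a2 the 6th and Col1a1 the 8th. Col12a1 followed at place 20, Col5a1 at 33, Col5a2 at 40, Col6a1 at 119 and Col4a2 at 129. By class, fibrillar members held 82.2% of the summed CPM of all members, FACIT members 9.07%, the other classes together 6.24% and basement membrane members 2.53%. The basement membrane share is almost all Col4a2, since the Col4a1 mRNA was not analysed here and Col4a5 and Col4a6 are no members.

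Per kilobase of transcript, the level of the 32 tested IDs ran from 1322 CPM per kb for Col1a2 to 0.292 for the Col18a1 ID NM_009929. Col1a2, Col3a1 (1317) and Col1a1 (1147) stood at the top, and their sample ranges overlapped. A gap followed, because the lowest Col1a1 sample was at 684 and the highest sample of any other tested member was at 251, in Col5a2. Col5a2 (216), Col5a1 (191), Col6a1 (190), Col12a1 (162) and Col4a2 (115) came next, each overlapping its neighbour in this order. A further gap separated the lowest Col4a2 sample, at 96.3, from Col14a1 (61.6), Col8a2 (57.4) and Col16a1 (56.8), which overlapped among themselves. Col8a1 (33.7), the Col6a2 ID NM_146007 (33.0) and Col15a1 (31.3) overlapped as well. Col23a1 (17.3), Col27a1 (15.1), Col22a1 (10.5), Col6a3 (8.59), Col19a1 (7.63), Col10a1 (7.45), Col7a1 (6.59) and Col6a6 (5.76) formed a range with no gap between neighbours. The remaining tested IDs, of Col20a1, Col6a2 (NM_001347207), Col18a1, Col28a1, Col4a4, Col6a5, Col11a2, Col6a4 and Col4a3, had means of 2.82 CPM per kb or less.

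**Figure D1:**
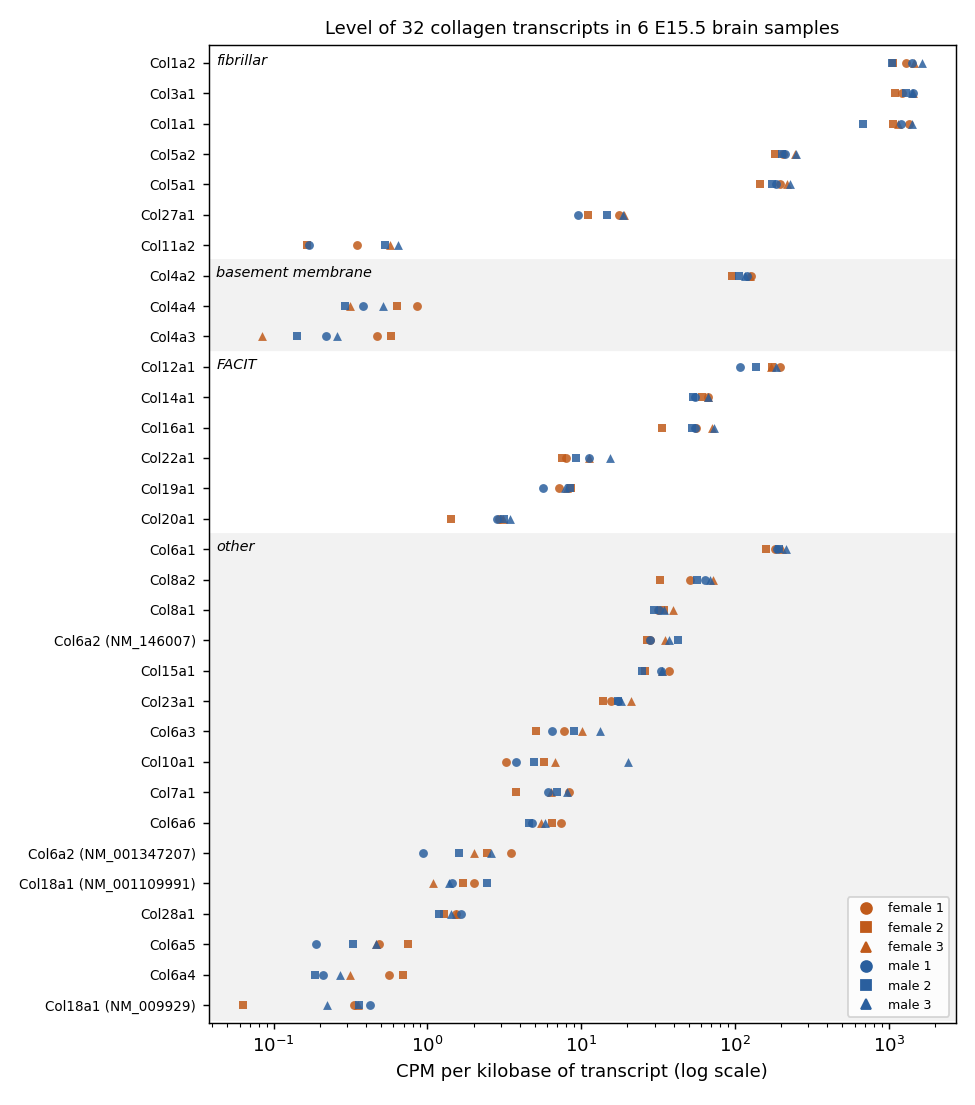
Level of each of the 32 tested collagen IDs in each sample, in CPM per kilobase of transcript on a log axis, grouped by class. Points are samples, coloured by sex with 1 shape per replicate number. Col1a1, Col1a2 and Col3a1 lie at 684 to 1636 and no other ID shown exceeds 251.

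None of the 32 tested collagens was called between the sexes at an edgeR adjusted p under 0.05, where 0.0299% of all 13374 tested IDs were called. At an unadjusted p under 0.05 there was 1 collagen, Col6a4, higher in females, while 11.5% of all tested IDs reached this level (6.68% higher in males and 4.82% higher in females). DESeq2 called none of the 22 collagens to which it gave an adjusted p, where it called 1.55% of 6114 such IDs. The other 10, Col6a4 among them, had none. At an unadjusted p under 0.05 it had 3 of 32 (9.38%, against 10.7% of all tested IDs), namely Col12a1, Col6a4 and Col22a1. Without a low-count filter, edgeR called Col10a1 alone, where 1.18% of all IDs were called in that fit. Of the 32 log2 fold changes of males against females, 17 were above 0 (53.1%, against 49% of all tested IDs). For 1 collagen, again Col6a4, the female and male CPM values were fully separate, against 17.1% of all tested IDs.

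The size of difference that these samples can hold was narrow for abundant collagens. For the 19 members with a mean of at least 50 CPM, all 95% intervals of the log2 fold change lay between -0.71 and 0.86, that is, within a factor of 2 in either direction. The 13 tested members with lower means had SEs of up to 0.63 on the log2 scale, and the intervals of several of them reached beyond a factor of 2. In bulk samples such as these, fewer cells of a type and less RNA per cell cannot be told apart.

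**Figure D2:**
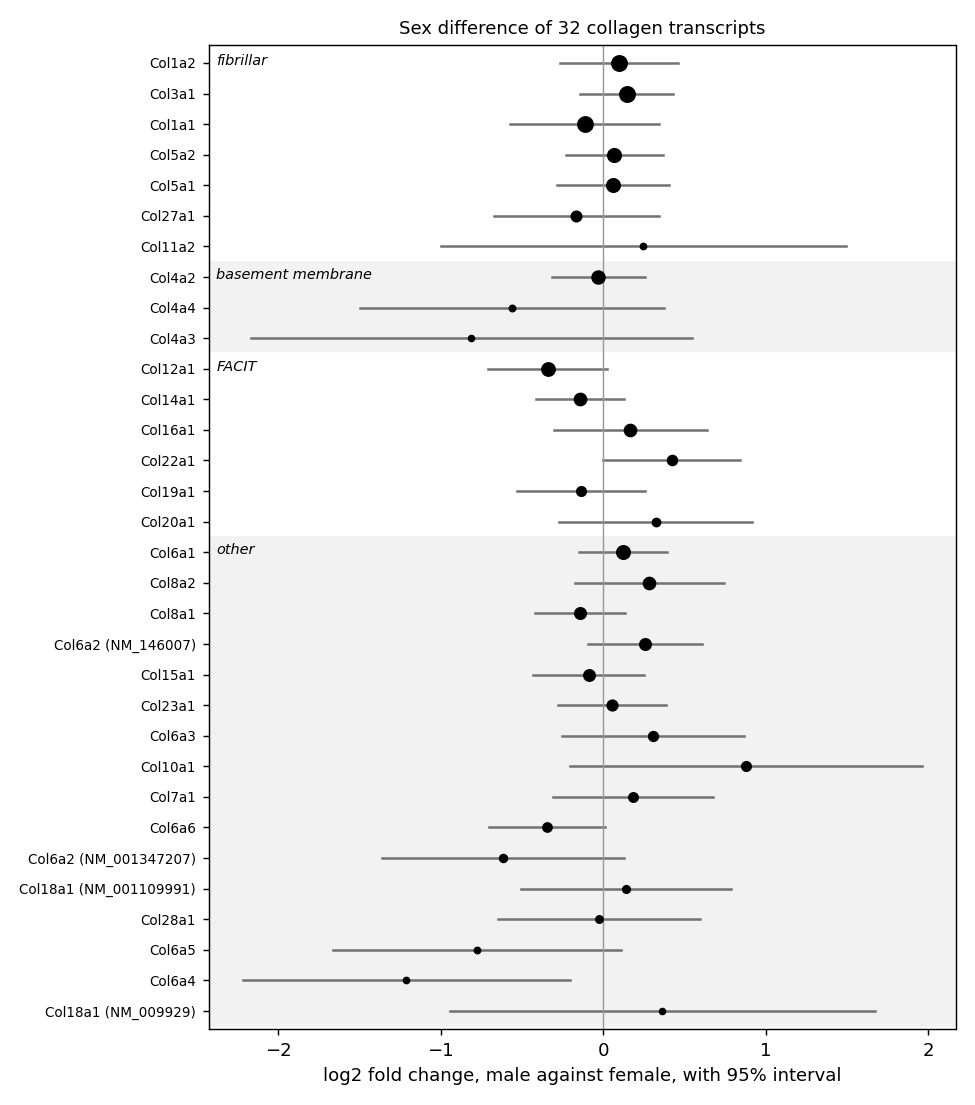
Log2 fold change of males against females for the 32 tested collagen IDs, grouped by class, with bars for the 95% interval of the edgeR fit. Larger points have a higher level per kilobase, and only the interval of Col6a4, -2.22 to -0.20, lies wholly on 1 side of 0.

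The fibrillar class held the most abundant transcripts, and its sexes overlapped throughout. Female samples 1, 2 and 3 had sums of 24999, 20648 and 26204 CPM, and the males, in the same order, 25680, 19796 and 28787 CPM. The lowest and the highest sum were both in male samples. Of its 7 tested IDs, 5 had a log2 fold change above 0 and the median was 0.07, which was -0.06 without female sample 2 and likewise without male sample 3. The median over all tested IDs was -0.01.

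Col1a1 (NM_007742; NCBIM37 chromosome 11, 94797538 to 94814356) encodes the α1 chain of type I collagen, the main fibre of bone, skin and other connective tissue. Its level was 8069, 6309 and 6823 CPM in females, in the order of their numbers, and 7149, 4059 and 8393 CPM in males. Male sample 2 was the lowest of all 6 and male sample 3 the highest, so the female values lay within the male range. This gave a log2 fold change of -0.11 (SE 0.21, edgeR adjusted p = 0.866), which turned to 0.14 without male sample 2.

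Col1a2 (NM_007743; chromosome 6, 4454814 to 4491543) encodes the α2 chain that joins 2 α1 chains in type I collagen. Its values were 6980, 5738 and 7777 CPM in females and 7552, 5606 and 8748 CPM in males. Female sample 2 and male sample 2 were low together, and the groups overlapped. Males against females, this was 0.10 on the log2 scale (SE 0.17, edgeR adjusted p = 0.854), and -0.02 without female sample 2 and -0.05 without male sample 3.

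Col3a1 (NM_009930; chromosome 1, 45368383 to 45406551), the only chain of type III collagen, had 6799, 6085 and 7995 CPM in females and 7960, 7215 and 7927 CPM in males. All 3 male values lay above female samples 1 and 2 and below female sample 3. Its difference was 0.15 on the log2 scale (SE 0.13, edgeR adjusted p = 0.684), 0.05 without female sample 2 and 0.27 without female sample 3.

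Col5a1 and Col5a2 encode chains of type V collagen, which starts and limits the growth of type I fibrils. Col5a1 (NM_015734; chromosome 2, 27741945 to 27895034) had 1658, 1216 and 1840 CPM in females and 1545, 1466 and 1910 CPM in males. Col5a2 (NM_007737; chromosome 1, 45431166 to 45560127), a neighbour of Col3a1 in the genome, had 1357, 1213 and 1620 CPM in females and 1401, 1336 and 1663 CPM in males. In both genes female sample 2 was the lowest and male sample 3 the highest. The log2 fold changes were 0.06 (SE 0.16) for Col5a1 and 0.07 (SE 0.14) for Col5a2, with edgeR adjusted p-values of 0.907 and 0.874. Both turned below 0 without female sample 2 or without male sample 3.

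The other fibrillar members were scarcer. Col27a1, a fibrillar chain of developing skeletal tissue, ranged from 72.1 to 145 CPM, with a log2 fold change of -0.16 (SE 0.23). The tested Col11a2 ID, NM_001317722, ranged from 0.997 to 3.90 CPM.

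**Figure D3:**
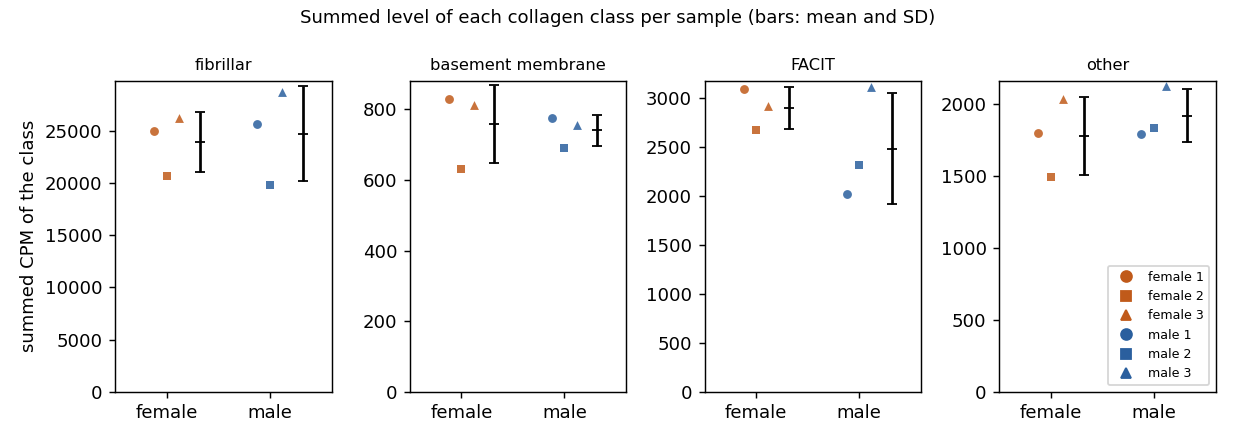
Summed CPM of the members of each collagen class in each sample, with the mean and SD of 3 samples beside each sex and axes that start at 0. In all 4 classes the female and male values overlap, and in the fibrillar class male sample 2 is the lowest at 19796 and male sample 3 the highest at 28787.

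Among the 3 tested basement membrane IDs Col4a2 was the most abundant, with the mRNA of its partner Col4a1 not analysed here. Col4a2 (NM_009932; chromosome 8, 11312805 to 11449287) encodes the chain that pairs with Col4a1 in nearly every basement membrane, blood vessels included. It had 820, 621 and 809 CPM in females and 770, 687 and 750 CPM in males, all male values lying within the female range. Its log2 difference of -0.03 (SE 0.13, edgeR adjusted p = 0.949) changed sign in 4 of the alternatives. Its 95% interval was -0.31 to 0.26.

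Col4a3 and Col4a4, chains of the specialised type IV network of kidney glomerulus and inner ear, had low counts. Col4a4 (NM_007735; chromosome 1, 82447298 to 82583424) was counted 41, 25 and 24 times in female and 29, 15 and 40 times in male samples, with means of 4.69 CPM ± 2.11 (SD, n = 3) and 3.09 CPM ± 0.86 (SD, n = 3). Its groups overlapped, with a log2 fold change of -0.56 (SE 0.43, edgeR adjusted p = 0.626). Col4a3, with 7 to 25 counts, had a log2 difference of -0.81 (SE 0.63). The median of the class, -0.56, is that of Col4a4 and rests on 3 IDs of which 2 had at most 41 counts. It was -0.22 without female sample 1 and -0.89 without female sample 3.

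Of the 6 FACITs, 3 were above and 3 below 0, with a median log2 fold change of 0.02 that was -0.08 without female sample 2 and -0.09 without male sample 3. Col12a1 (NM_001290308; chromosome 9, 79446798 to 79566638), which decorates type I fibrils in dense connective tissue, was the most abundant. It had 2262, 1997 and 1977 CPM in females and 1239, 1569 and 2114 CPM in males. Male samples 1 and 2 lay below all females, while male sample 3 lay among them. In log2 the difference was -0.34 (SE 0.17), with an unadjusted p of 0.065 and an edgeR adjusted p of 0.453. It depended on single samples and on the fit, being -0.56 without male sample 3 (unadjusted p of 0.00271, edgeR adjusted p of 0.209), -0.18 without male sample 1 (edgeR adjusted p of 0.715) and -0.12 with a trend on transcript length removed (edgeR adjusted p of 0.731).

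Col14a1 (NM_181277; chromosome 15, 55139305 to 55352358), another FACIT of type I fibrils, had 429, 392 and 430 CPM in females and 356, 344 and 434 CPM in males. As for Col12a1, male samples 1 and 2 lay below all females, while male sample 3 was the highest of all 6. The difference was -0.14 on the log2 scale (SE 0.13, edgeR adjusted p = 0.679), -0.02 with the length trend removed, -0.07 without male sample 2 and -0.24 without male sample 3.

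Col22a1 (NM_027174; chromosome 15, 71626225 to 71864657), a FACIT of the junctions between muscle and tendon, showed the opposite order. It had 70.7, 66.6 and 98.9 CPM in females and 99.3, 81.9 and 136 CPM in males. Male sample 3 was the highest, and male sample 2 lay between the females. Its log2 fold change came to 0.42 (SE 0.20), with an unadjusted p of 0.050 and an edgeR adjusted p of 0.435. It was 0.21 without male sample 3 (edgeR adjusted p of 0.632) and 0.64 without female sample 3 (edgeR adjusted p of 0.176). Col16a1 ranged from 175 to 380 CPM, Col19a1 from 24 to 36.9 and Col20a1 from 5.98 to 14.5, and their log2 fold changes ran from -0.14 to 0.32 with edgeR adjusted p-values of 0.665 to 0.804.

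The remaining IDs comprise the beaded-filament type VI family and its relative Col28a1, the network-forming types VIII and X, the anchoring fibril type VII, the multiplexins XV and XVIII and the transmembrane types XIII, XXIII and XXV. Of these 16 tested IDs, 9 had a log2 fold change above 0, with a median of 0.09 that was -0.07 without female sample 2 and -0.01 without male sample 3.

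Type VI collagen is built from an α1, an α2 and a further chain, for which Col6a3 and the related Col6a4, Col6a5 and Col6a6 code. Col6a1 (NM_009933; chromosome 10, 76171537 to 76188913) had 749, 657 and 832 CPM in females and 773, 792 and 876 CPM in males. The Col6a2 ID NM_146007 (chromosome 10, 76058507 to 76086375) had 131, 125 and 162 CPM in females and 131, 198 and 173 CPM in males. For both genes the sexes overlapped, and the log2 fold changes were 0.12 (SE 0.13) and 0.26 (SE 0.16), with edgeR adjusted p-values of 0.718 and 0.548. Col6a1 was at 0.04 without female sample 2, and Col6a2 at 0.13 without male sample 2 and 0.41 without male sample 1. The second Col6a2 ID, NM_001347207, ranged from 4.34 to 16.2 CPM and had a log2 fold change of -0.62 (SE 0.35), opposite in sign to the first. Col6a3 ranged from 44.5 to 116 CPM, with a log2 fold change of 0.31 (SE 0.26).

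The genes for the alternatives to Col6a3 lie side by side on chromosome 9, and all 3 of their tested IDs had lower means in males. Col6a4 (NM_026763; chromosome 9, 105891785 to 105999114) was counted 26, 26 and 23 times in female and 15, 9 and 20 times in male samples, which at these depths was 4.20, 5.18 and 2.34 CPM and 1.55, 1.37 and 2.00 CPM. All 3 female values exceeded all 3 male values, though female sample 3 stood close to male sample 3. The female mean was 3.91 CPM ± 1.44 (SD, n = 3) and the male mean 1.64 CPM ± 0.32 (SD, n = 3). The log2 fold change was -1.21 (SE 0.47), with an unadjusted p of 0.0222 and an edgeR adjusted p of 0.379, so it did not pass the threshold. In edgeR the unadjusted p was above 0.05 without female sample 1 (0.0629), without female sample 2 (0.0926) or without male sample 2 (0.0631). It was also above 0.05 in edgeR with replicate number as a block (0.0611).

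Col6a5 (NM_001167923; chromosome 9, 105758400 to 105862974) had 4.53, 6.98 and 4.28 CPM in females and 1.76, 3.05 and 4.29 CPM in males. Male sample 3 met the lower females, and the difference was -0.77 on the log2 scale (SE 0.41, edgeR adjusted p = 0.480), -0.48 without male sample 1 and -1.12 without male sample 3. The Col6a6 ID NM_001102607 (chromosome 9, 105591747 to 105730415) had 52.4, 45.9 and 39.1 CPM in females and 34, 32.5 and 41.2 CPM in males. Again only male sample 3 reached the female range, with a log2 fold change of -0.34 (SE 0.17, edgeR adjusted p = 0.442). Col6a5 and Col6a6 were picked for description after their values were seen, as neighbours of Col6a4.

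Type VIII collagen is a network of short chains in the cornea and around vessels. Col8a1 (NM_007739; chromosome 16, 57624371 to 57754850) had 162, 176 and 203 CPM in females and 163, 152 and 176 CPM in males. Col8a2 (NM_199473; chromosome 4, 125964037 to 125991574) had 220, 142 and 310 CPM in females and 278, 244 and 300 CPM in males. Female sample 2 held the lowest Col8a2 value without being low in Col8a1. The log2 fold changes were -0.14 (SE 0.13) and 0.29 (SE 0.21), with edgeR adjusted p-values of 0.684 and 0.613. Col8a1 was at -0.03 without female sample 3. Col8a2 was at 0.04 without female sample 2 and at 0.60 without female sample 3 (edgeR adjusted p of 0.166).

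Col10a1 (NM_009925; chromosome 10, 34109787 to 34116891), known as the collagen of hypertrophic cartilage, owed its difference to 1 sample. It had 10.2, 17.9 and 21.2 CPM in females and 11.8, 15.4 and 63.4 CPM in males. Male sample 3 stood apart, and the other 2 male samples lay within the female range. Its log2 difference was 0.88 (SE 0.50, edgeR adjusted p = 0.509), and -0.28 without male sample 3. Without a low-count filter it was 0.90 with an edgeR adjusted p of 0.00539, the call given above. Col10a1 was named after its values were seen.

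None of the last members was called by edgeR or had an unadjusted p under 0.05. Col7a1, which anchors epithelia to the tissue beneath, ranged from 34.7 to 77.3 CPM. Col15a1, a multiplexin of vessel and muscle basement membranes, ranged from 129 to 193 CPM, and Col23a1, a transmembrane collagen, from 78.9 to 120. Their log2 fold changes were 0.19 (SE 0.23), -0.09 (SE 0.16) and 0.05 (SE 0.15). Col28a1 and the 2 IDs of Col18a1, whose end fragment is endostatin, had at most 15.6 CPM in any sample. Their log2 fold changes were -0.03 (SE 0.29) for Col28a1, 0.14 (SE 0.30) for NM_001109991 and 0.36 (SE 0.60) for NM_009929.

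**Figure D4:**
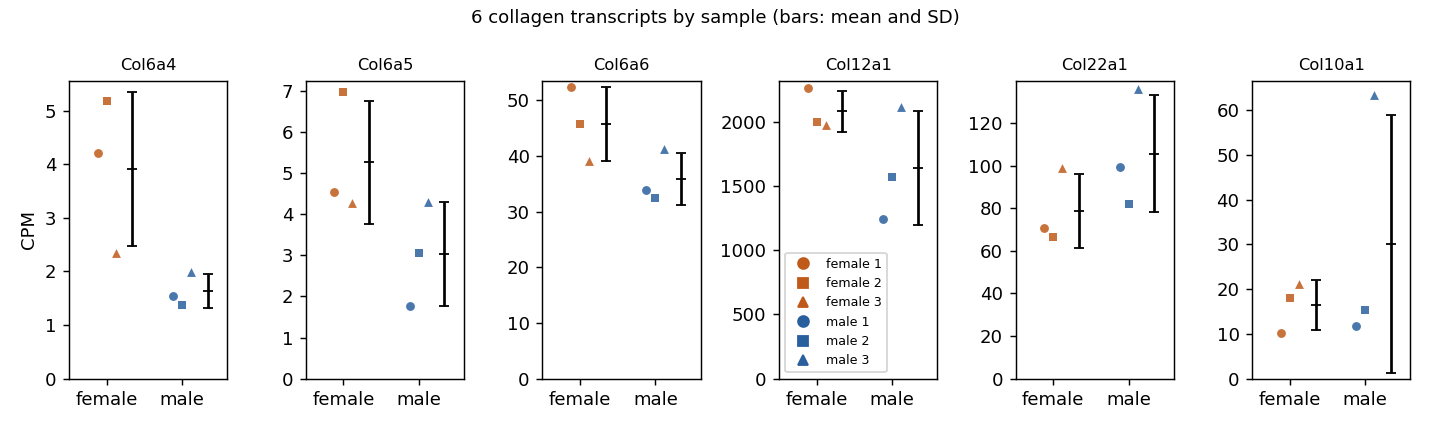
CPM of Col6a4, Col6a5, Col6a6, Col12a1, Col22a1 and Col10a1 in each sample, with the mean and SD of 3 samples beside each sex and axes that start at 0. Only Col6a4 has no overlap between the sexes, and the male mean of Col10a1 is carried by male sample 3 at 63.4 CPM.

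Across members, the extremes gathered in few samples rather than in 1 sex. Male sample 3 held the highest value of 12 of the 32 members and the lowest of none. Over all tested IDs it held the highest value of 11.3% and the lowest of 9.23%. Female sample 2 held the lowest value of 15 members, against 22.8% of all tested IDs, and male sample 2 that of 9, against 18.0%. These 3 samples thus set most of the collagen ranges, and the members together reached 30726, 25448 and 31979 CPM in females and 30267, 24645 and 34787 CPM in males.

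Chains that assemble into 1 molecule were then compared within each sample as a ratio of counts per kilobase, in which the library size cancels. With 3 samples against 3, a two-sided exact permutation test cannot give a p below 0.1, so none of the 4 pairs could pass. The pair of Col4a1 and Col4a2 was left out because the Col4a1 ID was under the count filter.

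Col1a1 per Col1a2 was 1.04, 0.991 and 0.791 in females and 0.853, 0.653 and 0.865 in males. The type I protein holds 2 α1 chains for each α2 chain, and no sample reached such a ratio at the transcript level. The difference of the log2 ratios, males against females, was -0.25 (exact permutation p = 0.3, adjusted p = 0.6 over 4 pairs), and -0.12 without male sample 2. Col5a1 per Col5a2 was steadier, from 0.790 to 0.963 over the 6 samples, with a difference that rounded to 0.00 (exact permutation p = 1.0).

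Col6a1 per Col6a2 (NM_146007) ran from 4.54 to 6.72, with a difference of -0.12 (exact permutation p = 0.6, adjusted p = 0.8). Col6a2 is one of the genes with several models, so that ratio is uncertain as a ratio of the genes. Col8a1 per Col8a2 was 0.626, 1.05 and 0.556 in females and 0.497, 0.529 and 0.499 in males. All 3 female ratios lay above all 3 male ratios, with female sample 2 far above the rest. The difference was -0.49 (exact permutation p = 0.1, the smallest possible, adjusted p = 0.4), and -0.22 without female sample 2.

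**Figure D5:**
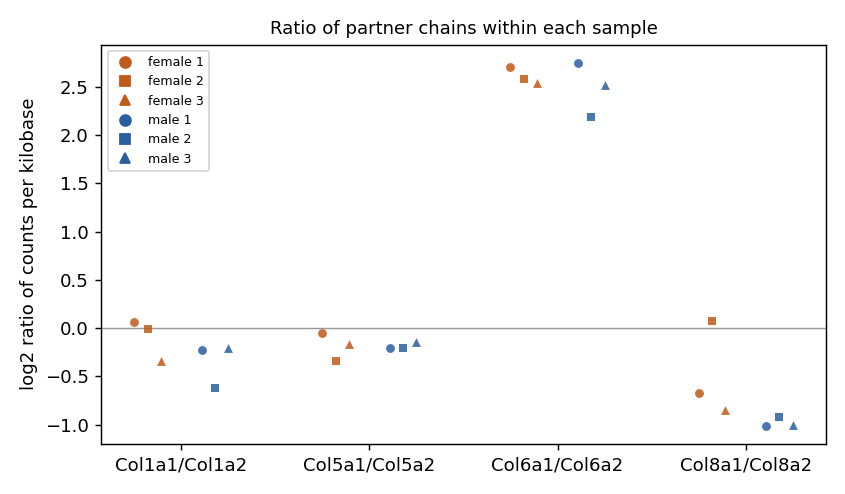
Log2 ratio of counts per kilobase for 4 pairs of collagen chains in each sample, by sex and replicate number, where 0 means equal levels. The ratio of Col8a1 to Col8a2 is the only one in which the sexes do not overlap, with male samples between -1.01 and -0.92.

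Genes that make, modify, bind, sense or degrade collagens were examined as a list of 67 genes, of which 64 had an ID and 59 IDs were tested. None was called by edgeR, nor by DESeq2 among the 46 to which it gave an adjusted p. At an unadjusted p under 0.05 there were 7 in edgeR, against 11.5% of all tested IDs, and 8 in DESeq2 (13.6%, against 10.7%). The female and male CPM values were fully separate for 11 of the 59 (18.6%, against 17.1% of all tested IDs). Of the 7, 1 was higher in males and 6 in females. Of the 59 log2 fold changes, 40 were below 0, with a median of -0.08, and 34 with the length trend removed. Without male sample 2, 32 of 58 were below 0 with a median of -0.01, and without female sample 2, 46 of 58 with a median of -0.14. Leaving out female sample 3 gave a median of -0.04, leaving out male sample 1 gave -0.03, and leaving out male sample 3 gave -0.16.

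Among the enzymes and helpers of hydroxylation, 7 of 9 tested IDs had log2 fold changes above 0, with a median of 0.11. Without female sample 2, 4 of 9 were below 0 with a median of 0.06, and with the length trend removed 3 of 9 with a median of 0.04. Ppib, a prolyl isomerase that works with the collagen 3-hydroxylase, had 118, 122 and 133 CPM in females and 163, 147 and 150 CPM in males, with no overlap and a log2 fold change of 0.30 (SE 0.12, unadjusted p = 0.0246, edgeR adjusted p = 0.383). P4ha3, a prolyl 4-hydroxylase subunit, had 44.7 to 50.4 CPM in females and 29.0 to 44.8 CPM in males, with a log2 fold change of -0.40 (SE 0.18, edgeR adjusted p = 0.409). Plod1, a lysyl hydroxylase, had a log2 fold change of 0.22 (SE 0.14, edgeR adjusted p = 0.555). The P4ha1 ID, from a gene with 3 models, had at most 18 counts in any sample.

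Serpinh1, the chaperone that escorts procollagen through the secretory pathway, had 2 IDs from a gene with 4 models, with at most 13 counts in any sample. Lox, which oxidises lysines for crosslinking, had 8.41, 4.98 and 9.78 CPM in females and 10.4, 10.1 and 12.8 CPM in males for the ID NM_010728. All 3 male values lay above the females, with a log2 fold change of 0.50 (SE 0.28, edgeR adjusted p = 0.494). In the crosslinking group 3 of 4 tested IDs were above 0, in propeptide processing 2 of 6, and in glycosylation and chaperones 2 of 5. These counts moved with single samples. In propeptide processing there were 4 of 6 with the length trend removed or without male sample 1, and 1 of 6 without female sample 2 or male sample 3. In glycosylation and chaperones there was 1 of 5 without female sample 2.

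The small proteoglycans that coat fibrils were below 0 in 6 of 6 tested IDs, with a median log2 fold change of -0.33, in 4 of 6 without male sample 2 and in 4 of 5 without female sample 2, where the median was -0.19. Prelp had 35.9, 43.1 and 36.2 CPM in females and 24.6, 18.2 and 32 CPM in males, with no overlap and a log2 fold change of -0.61 (SE 0.20, unadjusted p = 0.00965, edgeR adjusted p = 0.341). Ogn had a log2 fold change of -0.31 (SE 0.13, edgeR adjusted p = 0.400) and Fmod of -0.35 (SE 0.16, edgeR adjusted p = 0.424). Lum, another member of this family, had -0.07 (SE 0.12). The 6 IDs are of 5 genes, because Dcn, a gene with 2 models, has 2 of them. Its ID NM_001190451 had -0.01 (SE 0.18), and NM_007833, with at most 10 counts in any sample, had -1.31 (SE 0.80).

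Collagen receptors were below 0 in 7 of 7 tested IDs, with a median of -0.23, and in 6 of 7 without male sample 2. The median was -0.37 without male sample 3. Ddr2, a receptor kinase for fibrillar collagen, had 414, 367 and 358 CPM in females and 275, 289 and 342 CPM in males, which do not overlap, with a log2 fold change of -0.33 (SE 0.13, edgeR adjusted p = 0.378). Genes of degradation and its inhibition were below 0 in 7 of 7 tested IDs, but in 4 of 7 without female sample 3 or without male sample 2. Among them Timp3, an inhibitor of metalloproteinases that is held in the matrix, had 343, 412 and 335 CPM in females and 284, 272 and 305 CPM in males, with a log2 fold change of -0.34 (SE 0.12, edgeR adjusted p = 0.360). Laminins, nidogens and other basement membrane partners were below 0 in 10 of 15 tested IDs, with a median of -0.06, but in 5 of 15 with the length trend removed, with a median of 0.05. The median was -0.13 without female sample 2 (13 of 15 below 0) and likewise without male sample 3, and -0.02 without male sample 1.

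The tissue was checked with marker lists of the cell types that a dissected brain can hold. Neuronal markers summed to 2289 to 2637 CPM in females and 2478 to 3259 CPM in males. Markers of neural progenitors summed to 877 to 1003 CPM in females and 873 to 1095 CPM in males, and 3 of 4 tested IDs were above 0, with log2 fold changes of 0.77 for Hes5 and 0.39 for Sox2 (edgeR adjusted p = 0.338 and 0.378). Markers of meninges and fibroblasts summed to 1345 to 1607 CPM in females and 1221 to 1379 CPM in males. Of these tested IDs 7 of 10 were below 0, or 4 of 10 without male sample 2. The IDs of Dcn, Lum and Ogn also stand in the proteoglycan list above, so this count partly repeats that one. Lum and Ogn had the most counts here. The other tested IDs were below 0 for Pdgfra (-0.08), Foxc1 (-0.16) and Tbx18 (-0.31) and above 0 for Foxd1 (0.09), Aldh1a2 (0.05) and Slc6a13 (0.16). Endothelial markers summed to 619 to 659 CPM in females and 522 to 596 CPM in males, which did not overlap, with 3 of 4 tested IDs below 0. The other, Cldn5, had a log2 fold change of 0.43 (edgeR adjusted p = 0.379) and the lowest p of that list. Pericyte markers summed to 397 to 407 CPM in females and 372 to 424 CPM in males.

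Markers of tissues outside the brain were also present. Cartilage markers summed to 329 to 428 CPM in females and 131 to 291 CPM in males, without overlap. All 4 of 4 tested markers were below 0, namely Hapln1 (-1.09), Matn1 (-0.78), Matn3 (-0.73) and Comp (-0.49). The first 3 had an unadjusted p under 0.05 in edgeR, with adjusted p-values of 0.338, 0.396 and 0.383. Their list median was -0.75, but -0.48 without male sample 1 and -1.41 without male sample 3. The Acan ID had at most 2 counts, an uncertain level because its gene has 2 models. Bone markers summed to 546, 647 and 787 CPM in females and 667, 379 and 973 CPM in males. The lowest sum was in male sample 2 and the highest in male sample 3, as for Col1a1. Among females the order differed, since female sample 1 had the lowest bone sum and the highest Col1a1, at 8069 CPM. Ibsp and Ifitm5 carried the bone sums, and the defining marker Bglap had at most 9 counts. Skeletal muscle markers summed to 3373 to 3891 CPM in females and 2914 to 3762 CPM in males, epidermal markers to 856 to 1083 and 635 to 1658 CPM, and erythroid markers to 665 to 844 and 573 to 1019 CPM. The part of these tissues in the collagen values was not tested.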

How the data were processed

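Whole E15.5 mouse brains were profiled by RNA-seq in 3 female and 3 male samples, each pooled RNA of several embryos. According to the study's methods and the submitters' processing notes, reads were trimmed with Trimmomatic 0.32, aligned to mm9 (NCBIM37) with TopHat2 2.1.1, assembled with Cufflinks 2.2.1 and counted with featureCounts 1.5.1. The authors deposited 1 table per sample, with raw counts of each RefSeq transcript ID. How strand, reads aligned to several places and reads shared by transcripts were treated is not given in the sources used here. Groups came from the sex given in the labels. No batch, date or litter is given, so no comparison within batches was made.

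The members, gene lists and tests were chosen with earlier results of these data known. Symbols came from a RefSeq gene table, which named 23359 of 23485 IDs, and positions and transcript lengths from GENCODE M1 on NCBIM37, where the longest annotated transcript set the length for all IDs of a gene. The sexes were compared with edgeR 4.0.16 (R 4.3.3), using TMM factors (0.941 to 1.03), the quasi-likelihood F test and Benjamini-Hochberg adjustment over the 13374 IDs that reached 10 counts in any sample. Positive log2 fold changes are higher in males, SEs were derived from fold changes and F statistics, and 95% intervals use the total degrees of freedom. The test was run on simulated counts with changes placed only in more abundant IDs and the same spread assumed for all IDs. That check does not cover scarce members. Within a sex, all pairs of samples differed by more than sampling noise (chi-square per degree of freedom 9.03 to 44.9), so no sample was a copy. Values per sample are given for the 2 tested IDs per class with the highest level per kilobase, for members with an unadjusted p under 0.05, and for the chains of fixed pairs. Partner genes are named at an unadjusted p under 0.05, up to 3 per role and direction, together with Serpinh1, P4ha1, Plod1 and Lox. Col6a5, Col6a6, Col10a1, Col22a1, Lum, Dcn, P3h2 and single markers, outside this rule, were named after their values were seen, and the other members are given by ranges. Chain ratios were tested with scipy 1.17.1 by exact permutation. Alternatives were DESeq2 1.42.0, its size factors in edgeR, other count filters, 1 RUVr factor, removal of a transcript length trend, IDs summed per symbol, a replicate block and leaving out each sample.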

Additional observations from a re-analysis of the deposited data

How the results depend on the processing

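No collagen was called under 13 of 14 alternatives, and edgeR without a low-count filter called 1, Col10a1 (log2 fold change 0.90). DESeq2 gave an adjusted p to 22 of the 32 collagens. No partner gene was called under the 13 alternatives run for them, which leave out IDs summed per symbol. The fit without a low-count filter includes 23485 IDs and shifted the median log2 fold change of all IDs to -0.11. The number of collagens at an unadjusted p under 0.05, 1 in the report, was 7 of 37 without a low-count filter, and of 32 it was 6 with 1 RUVr factor, 2 with the length trend removed and 3 with DESeq2. It was 2 with IDs summed per symbol. The share of all tested IDs at that level was 10% without a low-count filter, 17.8% with 1 RUVr factor, 9.25% with the length trend removed, 10.7% with DESeq2 and 12.1% with IDs summed per symbol. The number was 0 to 6 when each replicate was left out in turn. It was 0 without female sample 1 or 2, 6 without female sample 3, 5 without male sample 1 or 3 and 2 without male sample 2, where the share of all tested IDs ran from 5.61% without female sample 2 to 16.1% without female sample 3. The number of partner genes at that level, 7 in the report, was 11 with 1 RUVr factor and 3 to 13 when each replicate was left out. It was 13 of 58 without male sample 3, where the share of all tested IDs was 14.4%. The causes were not tested. Of 18 collagen transcripts followed over 14 alternatives each, 12 kept their direction throughout. The other 6 ranged over the leave-one-out fits from -0.33 to 0.14 for Col1a1, -0.048 to 0.26 for Col1a2, -0.10 to 0.20 for Col5a1, -0.025 to 0.20 for Col5a2, -0.15 to 0.038 for Col4a2 and -0.28 to 1.26 for Col10a1. Col4a2 was 0.10 with the length trend removed. Its sign also turned without female sample 1, without female sample 3 and without male sample 2. The sex difference in the ratio of Col5a1 to Col5a2 ranged from -0.078 to 0.065 and that of Col6a1 to Col6a2 from -0.25 to 0.029 when each replicate was left out, the latter above 0 only without male sample 2, and Col6a1 to Col6a2 was -0.06 with both Col6a2 IDs summed, an alternative chosen after seeing the data. The labels do not say whether equal replicate numbers pair the samples. Correlations of deviations between same-numbered female and male samples were -0.29, -0.06 and -0.20, and no sample correlated best with its own number. With so few samples these values show no pairing but cannot exclude a shared litter or batch. With the replicate block, 0 collagens were called and 1 had an unadjusted p under 0.05, Col22a1, higher in males, against 8.41% of all tested IDs in that fit. Low counts kept 5 collagens from being tested.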
